A study of Mus musculus with 33 samples.

Results

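The clustered protocadherins are a family of cell-surface adhesion proteins whose genes lie in 3 tandem arrays, called alpha, beta and gamma. Every gene whose symbol begins with Pcdha, Pcdhb, Pcdhga, Pcdhgb, Pcdhgc or Pcdhac followed by a digit was taken as a member. This gave 58 of the 41565 named genes in the table, of which 14 were in the alpha, 22 in the beta and 22 in the gamma cluster. Names alone set the membership, but the family itself was selected on earlier results of these data, in which the adjusted p-value of Pcdhb14 was under 0.05 in the preoptic area 4 months after ovariectomy. The values of that comparison are therefore given as a description. The other comparisons in the preoptic area and those between regions reuse its libraries, so they are not free of this selection. The other region was, per the methods, collected from the same females.

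In a neuron, each variable exon of a protocadherin array has its own promoter, and only some promoters are used in any given cell, so that neighbouring neurons carry different combinations of isoforms. Identical combinations on membranes of the same neuron bind each other and lead to repulsion, which lets dendrites and axons tell self from non-self. The variable exons of the alpha and gamma clusters are spliced to constant exons shared by the whole cluster, whereas beta genes have no such constant exons. The C-type members at the end of the alpha and gamma clusters (Pcdhac1, Pcdhac2, Pcdhgc3, Pcdhgc4 and Pcdhgc5) are used in a more uniform way, and Pcdhgc4 is known for its role in neuronal survival and Pcdhgc5 for expression in mature neurons.

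RNA was sequenced in bulk from 2 dissected pieces of the hypothalamus of wild-type C57BL/6 female mice, the posterior hypothalamus (PH), which holds metabolic and reproductive centres, and the preoptic area (POA), which holds temperature-regulating neurons. Intact mice were killed in diestrus before any surgery, and the other mice were killed 14 days or 4 months after bilateral ovariectomy (OVX) at 3 to 4 months of age, an operation that removes the ovarian source of estrogen. There were 4 intact, 6 14-day and 6 4-month libraries of the PH, and 5 intact, 6 14-day and 6 4-month libraries of the POA. The sample titles call the intact mice sham, while the other labels and the methods call them intact. The 4-month mice were also older than the intact mice, so time after OVX and age cannot be told apart, and all groups shared genotype and sex. The labels put 16 of the 33 libraries in batch 1 and 17 in batch 2, without saying what a batch was, and every group had libraries of both. The methods describe PH and POA as collected from the same females, but no label ties a PH library to a POA library.

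The deposited values were a normalized signal on a linear scale with a floor of 22.1 and not counts, so the read depth behind each value is unknown here. The sum of the values of all genes was 72945400 and between 44534053 and 54486361 in the other 32 libraries in PH 14-day replicate 5, which also stood apart in the surrogate variable (SV1) used as covariate. On the log2 scale, beta members in that library were at a median of 0.46 above the intact PH mean and gamma members at -0.40. The counts, the cluster medians and the folds named first for the PH 14-day group are therefore also given without it. In the PH fits SV1 already took up much of this library, so those values had little room to differ and are no separate check. All listed defining markers of neurons (12), astrocytes (10), oligodendrocytes (8), microglia (8) and endothelial cells (6) were above 2 times the floor in every library. So were the genes listed for the neighbouring thalamus (6), choroid plexus (6), ependymal cells (4) and meningeal fibroblasts (5). The gene Slc17a6 stood in both the neuron and the thalamus list, so the latter is not particular to the thalamus, and carry-over of tissue was not tested. Of 13 listed genes of the hypothalamus, 10 were, and Rax, Sox14 and Hcrt fell short in some libraries. No library had all 3 markers of serotonergic neurons, which belong to the brainstem, above that level.

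All 58 members matched the mouse annotation (GENCODE M39, GRCm39), where they lie on the plus strand of chromosome 18. The alpha cluster spans chr18:37063237-37320716, the beta cluster chr18:37397991-37657532 and the gamma cluster chr18:37794846-37975014. Of the exon bases of an alpha member, a median of 53.5% (38.4% to 54.9%) overlap exons of another member, and of a gamma member 45.6% (28.4% to 67.4%). In the beta cluster only Pcdhb21 and Pcdhb22 overlap, by 9.67% and 6.88% of their exon bases. Of all 31-base words in its transcripts, a beta member shares a median of 86.7% with no other gene, against 49.7% in gamma and 35.7% in alpha. The authors' counter assigns reads to transcripts, so reads from the shared exons were split among alpha or among gamma members by estimation, and values of these members are less separate from each other than those of the beta members. The least separable members were Pcdhga10, with 0.599% of its words unique and Pcdha4, with 7.77%, and the annotation also holds the overlapping genes Gm37388 and Gm38666 and a further alpha gene, Pcdha4b, that has no value here. Antisense transcripts overlap several members, among them Gm37446 over Pcdhb12 (33.1% unique), and the strand setting of the counting is not given in the sources used here.

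All 58 members passed the filter on low values in both regions, and 57 of them were above 2 times the floor in all 33 libraries. The exception was Pcdhb1, which was in 32 of the 33. To compare levels between genes, the floor was subtracted and the value divided by the length of the gene's merged exons in kilobases. On this per-length scale Pcdhgc3 stood highest, at 1140.1 ± 183 (SD, n = 33 libraries). It was followed by Pcdhac2 at 418 ± 41.4, Pcdhgc4 at 350.3 ± 80.1, Pcdhga6 at 326 ± 48.99 and Pcdhgb6 at 321 ± 32.97, and the ranges of these 4 across libraries overlapped. The fifth C-type gene, Pcdhac1, was at 42.3 ± 8.25, rank 52 of 58. The highest beta member was Pcdhb9, at 176 ± 27.3, and the highest alpha member outside the C-type was Pcdha4, at 121 ± 26.9. Pcdha4 is among the least separable members, so its level rests largely on the estimated split of reads. The lowest members were Pcdha8 in alpha, at 14.3 ± 3.52, Pcdhb1 in beta, at 20.5 ± 6.70, and Pcdhgb8 in gamma, at 40.4 ± 7.29. Median levels per length were 67.3 for the 12 variable alpha genes, 73.1 for the 22 beta genes, 202 for the 12 gamma A genes and 82.3 for the 7 gamma B genes.

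As a share of the summed per-length signal of all 58 members, the gamma cluster took 63.0% ± 3.82 (SD, n = 33), the beta cluster 21.4% ± 2.85 and the alpha cluster 15.5% ± 1.29. The 5 C-type genes together took 26.9% ± 2.90, and Pcdhgc3 alone 14.1% ± 1.85. In the intact groups the C-type share was 26.3% to 30.7% in the PH and 26.05% to 30.9% in the POA. It was 23.6% to 29.1% in the PH and 22.2% to 28.7% in the POA 4 months after OVX, so the groups overlapped. Over all 33 libraries, the coefficient of variation of a member on the per-length scale ran from 8.41% for Pcdhb17 to 32.7% for Pcdhb1. Pcdhb8 (32.4%), Pcdhb2 (30.9%) and Pcdhgc5 (28.1%) were next to it. The highest deposited values of Pcdhb8 (582) and Pcdhb2 (421) were both in PH 14-day replicate 5, and the coefficients were not computed without that library.

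**Figure D1:**
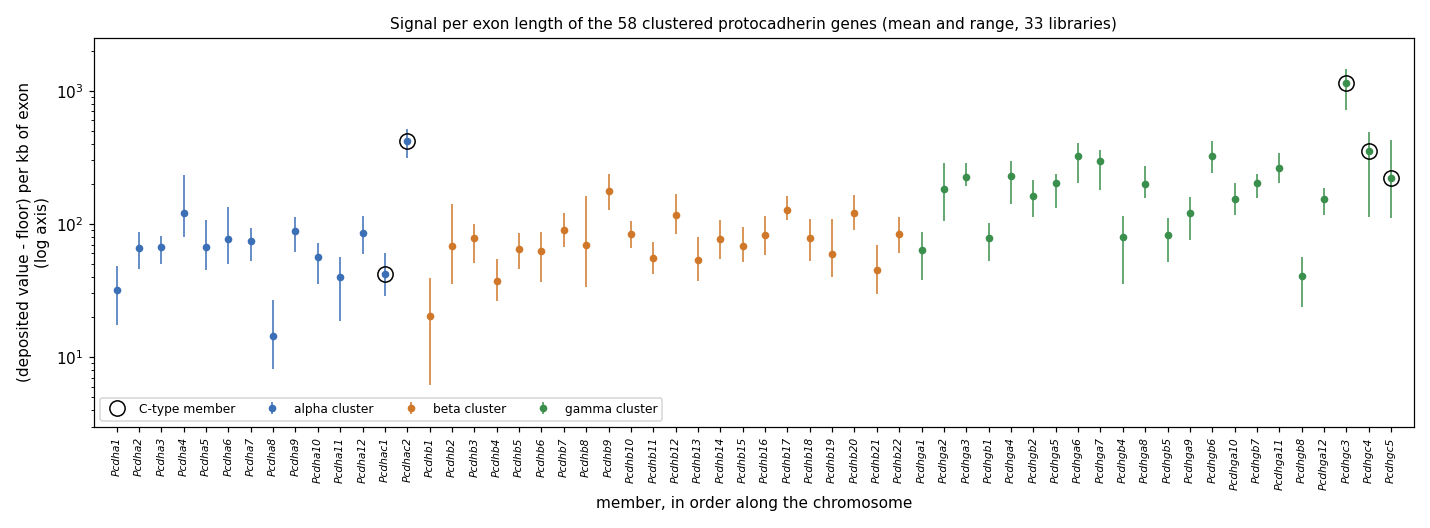
Signal per kilobase of exon, after subtraction of the floor, for the 58 members in chromosome order on a log axis, as the mean (point) and range (line) over 33 libraries, coloured by cluster with C-type members circled. Pcdhgc3 stands highest at 1140.1, most gamma members lie above most alpha and beta members, and Pcdha8 and Pcdhb1 are lowest.

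In the PH 4 months after OVX, gamma and beta members were mostly higher than in intact mice while alpha members and the C-type genes were not. Of the 58 members, 44 had a log2 fold change above 0, where 47.2% of all 21983 genes tested did: 7 of 14 in alpha, 19 of 22 in beta and 18 of 22 in gamma. The median log2 fold change was 0.26 in gamma, 0.18 in beta and 0.0090 in alpha, against -0.0093 over all genes tested. No member passed an adjusted p of 0.05 (limma, Benjamini-Hochberg over all genes tested), where 0.0318% of all genes did. At an unadjusted p under 0.05 there were 22 higher members, 14 in gamma and 8 in beta, and 2 lower members, both in alpha. Among all genes tested 6.06% were under that p, 2.95% higher and 3.12% lower. The count over members is a description of genes that share exons and libraries.

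Pcdhb14, a beta gene at chr18:37580709-37589403 with 94.8% of its 31-base words unique, had the smallest p in this comparison. Its deposited value was 527, 548, 559.8 and 585 in the 4 intact PH libraries, and the lowest, median and highest of the 6 4-month libraries were 678, 758 and 904. Every 4-month library was above every intact library, at a log2 fold change of 0.46 ± 0.090 (SE; adjusted p = 0.0971, limma). Within batch 1 the difference of log2 means was 0.53 and within batch 2 it was 0.37.

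Pcdhb1, the first beta gene of the array, was low, at 38.0, 48.9, 53.6 and 62.2 in the intact PH libraries against a lowest, median and highest value of 73.4, 83.2 and 123 at 4 months. The groups did not overlap, and its log2 fold change of 0.78 ± 0.16 (SE; adjusted p = 0.119, limma) was the largest among the members. The first of these intact values lies below 2 times the floor, and the floor makes up a large part of the others.

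Pcdhga2, a gamma A gene near the start of the gamma array, was at 675, 651, 841 and 715 in the intact PH libraries, and its lowest, median and highest 4-month values were 853, 1184 and 1404. Its highest intact library lay just under its lowest 4-month library, at a log2 fold change of 0.62 ± 0.13 (SE; adjusted p = 0.139, limma), with 0.60 within batch 1 and 0.69 within batch 2. In all, 9 members had 4-month libraries that did not overlap the intact ones, each of them higher: Pcdhb1, Pcdhb3, Pcdhb5, Pcdhb9, Pcdhb14, Pcdhga1, Pcdhga2, Pcdhga3 and Pcdhgb2. Of all genes tested 0.555% had such a separation in the higher and 0.396% in the lower direction. Among these, Pcdhga3 went from 945 to 1070.4 in intact libraries to 1148 to 1325 at 4 months, and Pcdhga1 from 306 to 359 to 407 to 496.

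The position of the higher members along the arrays was looked at after the values were known. When each cluster is cut at its middle gene, 10 of the 11 gamma members from Pcdhga1 to Pcdhga8 were higher at an unadjusted p under 0.05 in the PH, against 4 of the 11 from Pcdhgb5 to Pcdhgc5, and the medians were 0.32 and 0.089. In the beta cluster the counts were 6 of 11 from Pcdhb1 to Pcdhb11 and 2 of 11 from Pcdhb12 to Pcdhb22, with medians of 0.31 and 0.12. In the POA 4 months after OVX the same cut gave 6 and 0 of 11 in gamma and 5 and 4 of 11 in beta. Among all genes tested at 4 months, 2.95% were higher at that p for the PH and 4.1% for the POA. The later gamma side holds the C-type genes Pcdhgc3, Pcdhgc4 and Pcdhgc5, none of which was higher at that p in either region. The counts of 4 in the PH and 0 in the POA on that side are thus those of its other genes. Its median includes the C-type genes. The difference between the sides of the cut was not tested.

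Of the 5 C-type members, 1 had a log2 fold change above 0 in the PH at 4 months, with a median of -0.066 for the class. Pcdhgc3, the highest member of the family, was at 4778, 6643, 7229 and 7029.6 in intact libraries and at 5333, 6555 and 7668 (lowest, median and highest) at 4 months, with a log2 fold change of -0.016 ± 0.099 (SE). The fold changes were -0.10 ± 0.097 for Pcdhgc4, -0.12 ± 0.22 for Pcdhgc5, -0.066 ± 0.15 for Pcdhac1 and 0.042 ± 0.086 for Pcdhac2. In all 5 the intact and 4-month values overlapped, and the unadjusted p was over 0.05 for each. Pcdhgc5 was the most variable of them, with values from 1105 to 3312 in the 4-month PH libraries. The 2 members lower at an unadjusted p under 0.05 were Pcdha1 (-0.42 ± 0.20, SE) and Pcdha12 (-0.31 ± 0.13), and their intact and 4-month values overlapped. The highest and lowest variable alpha genes, Pcdha4 and Pcdha8, had log2 fold changes of -0.0017 ± 0.11 and 0.14 ± 0.18, with the limit on Pcdha4 given above.

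The gamma and beta medians in the PH at 4 months kept their sign within each batch. They were 0.27 and 0.19 in batch 1 and 0.21 and 0.15 in batch 2, where 4 members were under an unadjusted p of 0.05. Without PH intact replicate 1, whose gamma members were lowest of the intact libraries, they were 0.21 and 0.12 and the alpha median was -0.079, with 19 members under that p. Sums of markers are given here and below with the floor subtracted from each gene. Of 8 microglial markers 4 were higher at an unadjusted p under 0.05, where 2.95% of all genes were. The summed value of the 8 was 12730.3 to 13978 in intact and 13969 to 16775 in 4-month PH libraries. Of 6 endothelial markers 4 were higher, with sums of 7566 to 8103 and 8806 to 11970.0, and none of these markers was at the floor. Neuronal markers had a median log2 fold change of -0.054 with 2 of 12 lower, where 3.12% of all genes were, and sums of 330297 to 350141 and 319362 to 357354. Sums of astrocyte markers overlapped, at 195952 to 235832 and 202612 to 244488. So did those of oligodendrocyte markers, at 290643 to 319954 and 253740 to 365837. In bulk tissue, more or fewer cells of a type and more or less RNA per cell cannot be told apart, and the part of these markers in the protocadherin values was not tested.

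**Figure D2:**
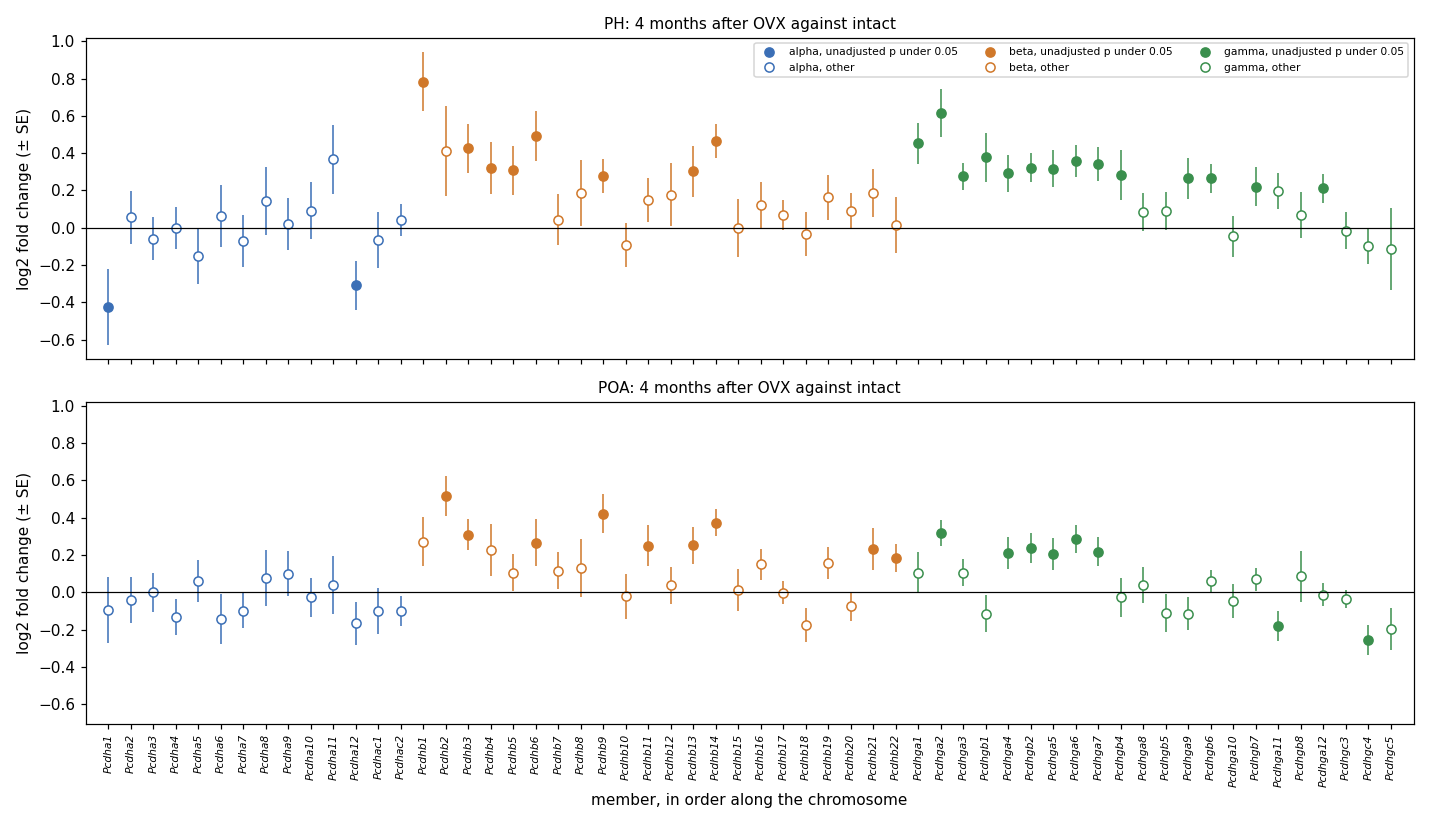
Log2 fold change (point) ± SE (line) of each member 4 months after OVX against intact, in chromosome order, with the PH above and the POA below and filled points for an unadjusted p under 0.05. In the PH all 10 members from Pcdhga1 to Pcdhgb4 are filled and above 0, the C-type genes lie near or below 0 in both regions, and no alpha member is filled above 0.

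In the PH 14 days after OVX the same direction was seen in part, with 43 of 58 members above 0 where 49.4% of all genes were. Median log2 fold changes were 0.11 in gamma, 0.086 in beta and 0.018 in alpha, against -0.0018 over all genes. No member and 0% of all genes passed the adjusted threshold (limma). At an unadjusted p under 0.05, 9 members were higher and 1 lower, Pcdha5, where 3.03% of all genes were under that p (1.56% higher and 1.47% lower). The 3 members with the smallest p were Pcdhga6, Pcdhb1 and Pcdhb14. Pcdhga6, one of the highest gamma A genes, was at 1128, 1214, 1548 and 1334 in intact PH libraries and at 1002, 1631 and 1845 (lowest, median and highest) at 14 days, where the lowest value was replicate 5 and lay under every intact library. Its log2 fold change was 0.38 ± 0.087 (SE; adjusted p = 1.0, limma), but 0.043 in batch 2 alone, which holds replicate 5, against 0.45 in batch 1. Pcdhb14 was at 645, 709 and 897 at 14 days, all above the intact libraries, at a log2 fold change of 0.34 ± 0.092 (SE; adjusted p = 1.0, limma). Pcdhb6, a beta gene from the earlier stretch of the array, also did not overlap, at 174 to 229 in intact and 234 to 309 in 14-day libraries. Of all genes tested 0.277% were separated in this way and 0.296% downwards.

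These 14-day values depended on the covariate. With batch in place of SV1, or with no covariate, 3 in place of 10 members were under an unadjusted p of 0.05, and in batch 2 alone the gamma median was -0.10. Without replicate 5 of the 14-day group 10 members were under that p, and the gamma and beta medians were 0.11 and 0.062. SV1 was 0.79 in that library and took up much of it in the main fit, so near-equal values were to be had without it. The log2 fold changes were then 0.38 for Pcdhga6, 0.66 for Pcdhb1 and 0.33 for Pcdhb14. Without PH intact replicate 1 the beta median was -0.021 and the alpha median -0.014. At 14 days 2 of 6 endothelial and 1 of 8 microglial markers were higher at an unadjusted p under 0.05, where 1.56% of all genes were. The summed values of these lists were 7874 to 10518 and 12944 to 15091, and their part in the protocadherin values was not tested.

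Between the PH groups at 4 months and 14 days, 5 members were higher at an unadjusted p under 0.05 and none lower, where 4.09% of all genes were under that p (2.07% higher and 2.02% lower). No member and 0.0091% of all genes passed the adjusted threshold (limma). The 3 with the smallest p stand side by side at the start of the gamma array. Pcdhga1 was at 230.5, 329 and 377 (lowest, median and highest) at 14 days and 407, 449 and 496 at 4 months, with no overlap and a log2 fold change of 0.43 ± 0.10 (SE; adjusted p = 0.441, limma). Pcdhga3 was at 982, 1028 and 1096 and 1148, 1224 and 1325, also without overlap, at 0.24 ± 0.068 (SE; adjusted p = 0.857, limma). Pcdhga2 overlapped, at 0.41 ± 0.12 (SE), with 0.23 in batch 1 and 0.86 in batch 2, where PH 14-day replicate 5 held its lowest value. Of all genes 0.127% were separated upwards and 0.109% downwards in this comparison. The median log2 fold changes were 0.12 in beta, 0.080 in gamma and 0.015 in alpha. Without PH 14-day replicate 5, 5 members were under an unadjusted p of 0.05, and the log2 fold changes were 0.42 for Pcdhga1 (adjusted p = 0.280, limma), 0.24 for Pcdhga3 and 0.40 for Pcdhga2. Without PH 14-day replicate 6 the gamma median was 0.048, and without replicate 3 the alpha median was -0.038.

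**Figure D3:**
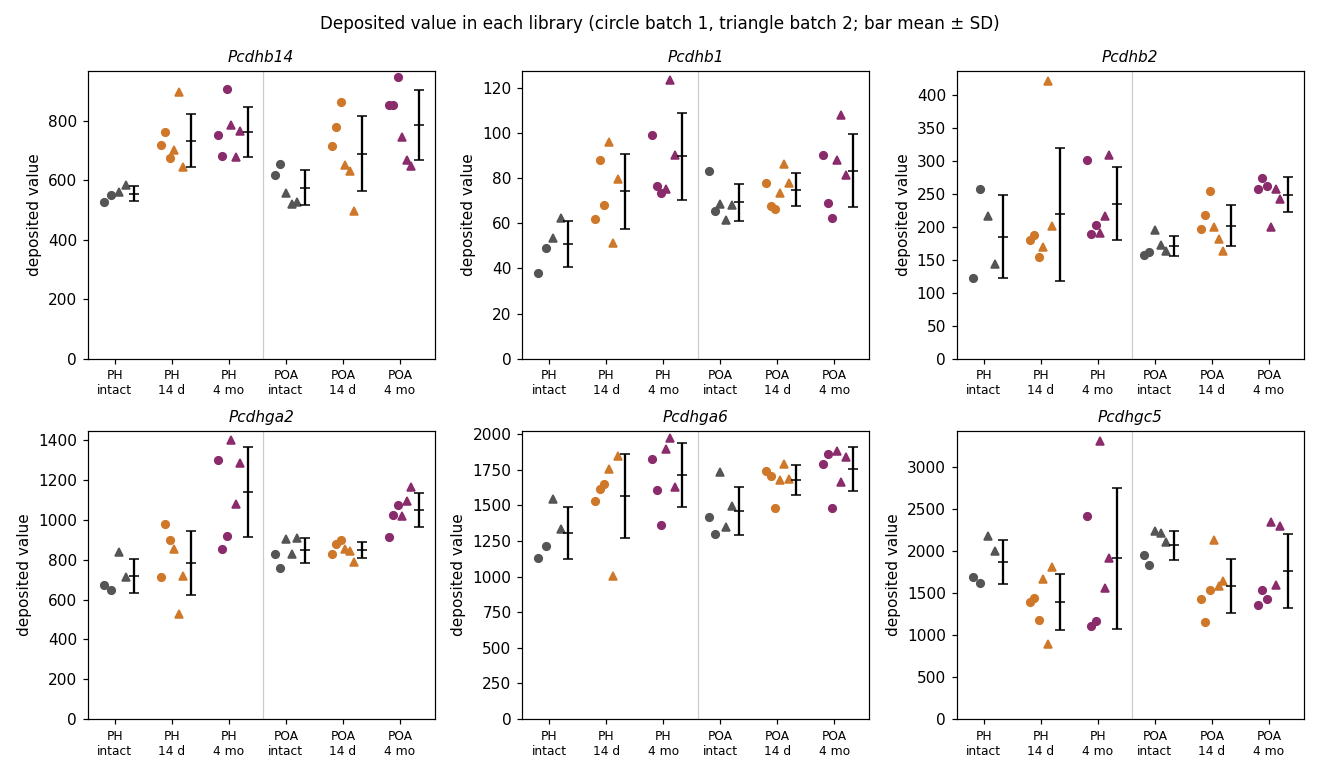
Deposited value of 6 members in each of the 33 libraries by region and group (circle batch 1, triangle batch 2), with the mean ± SD of each group beside the points. Pcdhb14 is above the intact PH libraries in all 12 PH libraries after OVX, Pcdhga2 is higher at 4 months than at 14 days in the POA without overlap, and Pcdhgc5 has no such pattern.

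In the POA 4 months after OVX, beta members were again mostly higher, gamma members were divided and alpha members were mostly lower. A log2 fold change above 0 was found for 18 of 22 beta, 12 of 22 gamma and 4 of 14 alpha members, where 46.5% of all 21356 genes tested did. The medians were 0.17, 0.051 and -0.069, against -0.011 over all genes. Without POA intact replicate 2 the alpha median was -0.0036, and without POA 4-month replicate 4 the gamma median was 0.010. At an unadjusted p under 0.05, 9 beta and 6 gamma members were higher and 2 gamma members were lower, and 8.5% of all genes were under that p (4.1% higher and 4.4% lower). One member, Pcdhb14, and 0.0937% of all genes passed the adjusted threshold (limma), and this was the value known when the family was chosen.

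Pcdhb14 was at 618, 654, 556, 521 and 525 in the 5 intact POA libraries and at 648, 798 and 945 (lowest, median and highest) at 4 months. The lowest 4-month library lay just under the highest intact one, and both batches showed a higher mean after OVX, by 0.47 and 0.36 on the log2 scale. Its fitted log2 fold change was 0.37 ± 0.072 (SE, n = 5 and 6). Its call was lost with batch in place of SV1, with no covariate, with the replicate block, and when any 1 of 16 of the 17 POA libraries was left out, while its log2 fold change lay between 0.34 and 0.40 over the 17 fits without 1 library. Without the remaining library, POA 14-day replicate 6, it and Pcdhga2 were called.

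Pcdhb2, the second beta gene, was at 158, 162, 196, 173 and 163 in intact POA libraries and at 199, 257 and 274 at 4 months, with no overlap and a log2 fold change of 0.52 ± 0.11 (SE). In the PH its values overlapped, at 122 to 257 and 189 to 309. Pcdhga2 was at 830.2, 757, 906, 831 and 912 in intact POA libraries and 913, 1051 and 1167 at 4 months, where the lowest 4-month value was just above the highest intact value, at 0.32 ± 0.069 (SE). Pcdhb3 was the third member without overlap, at 254 to 293 and 319 to 385, and 0.412% of all genes were separated upwards and 0.253% downwards. The 2 lower members were Pcdhga11 (-0.18 ± 0.080, SE) and the C-type gene Pcdhgc4 (-0.26 ± 0.081). Pcdhgc4 was at 1938, 2019, 2903, 2428 and 2804 in intact libraries and 1459, 1839 and 2491 at 4 months, with overlap. All 5 C-type genes had a log2 fold change below 0 here, of -0.036 for Pcdhgc3, -0.20 for Pcdhgc5, -0.10 for Pcdhac1 and -0.10 for Pcdhac2.

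Of 8 microglial markers, 6 were higher in the POA at 4 months at an unadjusted p under 0.05, 1 of them also after adjustment. Among all genes 4.1% were higher and 4.4% lower at that unadjusted p, and 0.0937% passed the adjusted threshold. The microglial sums were 13073 to 14208 in intact and 13907 to 16796 in 4-month libraries. Of 6 endothelial markers 2 were higher and 1 lower, with sums of 7670.4 to 8596 and 7840.3 to 10748. No neuronal marker of 12 was under that p. The part of these markers in the protocadherin values was not tested.

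In the POA 14 days after OVX, 27 of 58 members had a log2 fold change above 0, where 47.8% of all genes did. No member and 0.00468% of all genes passed the adjusted threshold (limma). At an unadjusted p under 0.05, 5 members were higher (Pcdhb3, Pcdhb6, Pcdhb9, Pcdhb14 and Pcdhga6) and 4 lower (Pcdhb20, Pcdhgb1, Pcdhga11 and Pcdhgc5), where 6.13% of all genes were under that p (2.83% higher and 3.3% lower). Pcdhgc5, the C-type gene at the end of the gamma array, had the smallest p. It was at 1953, 1839.8, 2236, 2218 and 2108 in intact libraries and at 1158, 1564 and 2135 (lowest, median and highest) at 14 days, where 5 of the 6 libraries lay below every intact one, at a log2 fold change of -0.35 ± 0.11 (SE; adjusted p = 0.779, limma). Pcdhga6 was at 1422, 1296, 1732, 1350.3 and 1496 and 1482, 1694 and 1793, at 0.22 ± 0.075 (SE), and Pcdhb14 at 497, 682 and 863 at 14 days, at 0.19 ± 0.072 (SE), both with overlap. No member was separated between these groups, where 0.262% of all genes were separated upwards and 0.145% downwards. With batch added to SV1 the number of members under an unadjusted p of 0.05 was 15 in place of 9. Markers of the anterior pituitary varied in this comparison, and 4 of the 6 were higher at an unadjusted p under 0.05. The sum of the 6, with the floor subtracted from each, was 229.5 to 1956 in intact and 326 to 10578 in 14-day libraries. Of 12 neuronal markers 2 were lower, with a median of -0.053 over the 12. The part of these markers in the protocadherin values was not tested.

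Between 4 months and 14 days in the POA, 9 members were higher at an unadjusted p under 0.05 (5 beta and 4 gamma) and Pcdhgc4 was lower, where 5.11% of all genes were under that p (2.47% higher and 2.64% lower). No member and 0.0281% of all genes passed the adjusted threshold (limma). Pcdhga2 was at 789, 849.5 and 899 at 14 days and at 913, 1051 and 1167 at 4 months, with no overlap and a log2 fold change of 0.30 ± 0.065 (SE; adjusted p = 0.279, limma). It was the one member so separated, as 0.0702% of all genes were, and 0.0421% were separated downwards. Pcdhb13 (0.33 ± 0.094, SE) and Pcdhb2 (0.30 ± 0.10) came next. All 12 gamma A genes had a log2 fold change above 0 here, from 0.015 to 0.30, while 1 of the 5 C-type genes did.

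**Figure D4:**
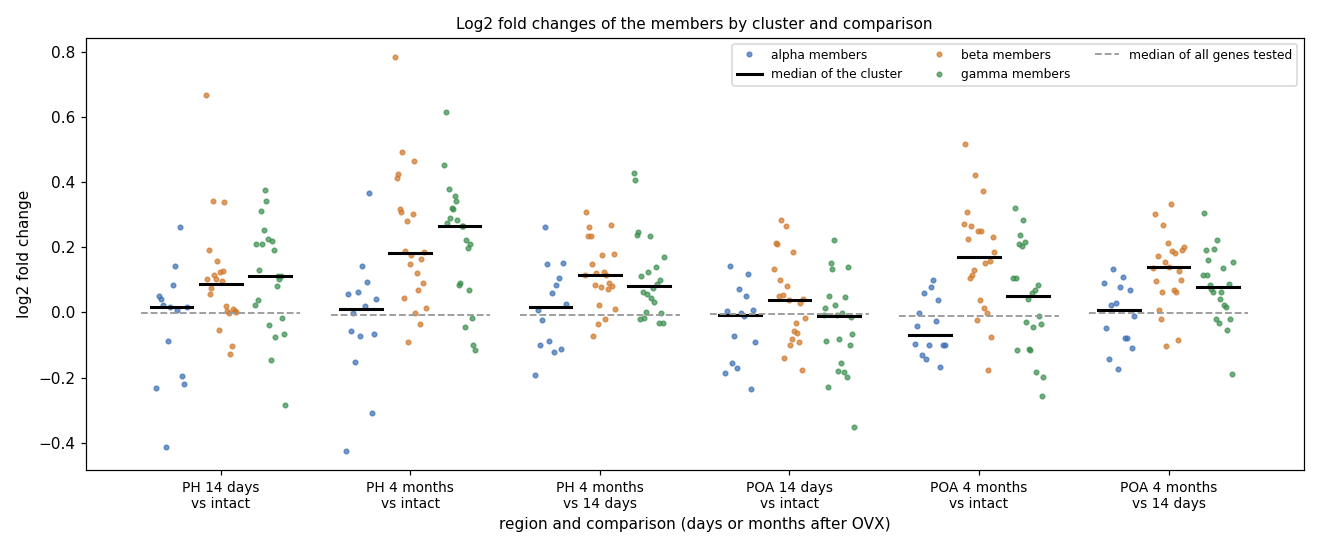
Log2 fold change of each member (points) by cluster in the 6 comparisons of groups, with the median of the cluster (black bar) and of all genes tested (dashed line). Beta medians are above 0 in all 6 comparisons and alpha medians lie between -0.069 and 0.018, and comparisons within a region share libraries.

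The response of each member was also compared between the regions in one fit over all 33 libraries. This fit takes the libraries as independent, although both regions were collected from the same females. None of the 58 members passed the adjusted threshold for a difference between PH and POA, at 14 days or at 4 months (limma), and 0.00452% and 0.00904% of all 22131 genes did. At an unadjusted p under 0.05, 5 members had a larger log2 fold change in the PH at 14 days and 7 at 4 months, and none a smaller one, where 2.99% (1.36% larger and 1.63% smaller) and 3.61% (1.69% and 1.92%) of all genes were under that p. A difference above 0 was found for 36 of 58 members at 14 days and 42 at 4 months, where 49.6% and 49.3% of all genes had one. The smallest p was that of Pcdhb1 at 14 days, at a difference (PH minus POA) of 0.48 ± 0.20 (SE), and of Pcdhga11 at 4 months, at 0.37 ± 0.12 (SE). Pcdhga11 was at 1013 to 1272 in intact and 1154 to 1667 in 4-month PH libraries, and at 1227 to 1605 and 1079.9 to 1492 in the POA. Without a covariate 0 members were under that p at 14 days, and without PH 14-day replicate 5 there were 6 at 14 days, with Pcdhb1 at 0.51. The gamma median of the difference was 0.14 at 4 months, with 20 of 22 members above 0, and the beta median was 0.049, with 13 of 22.

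At 4 months, 11 members were higher at an unadjusted p under 0.05 in the PH as well as in the POA, which is 11 of the 22 such PH members and 11 of the 15 such POA members. Of all 21208 genes tested in both regions 0.717% were higher in both at that p, and the 11 include Pcdhb14, whose POA value was known when the family was selected. They were Pcdhb3, Pcdhb6, Pcdhb9, Pcdhb13 and Pcdhb14 in the beta cluster and Pcdhga2, Pcdhga4, Pcdhgb2, Pcdhga5, Pcdhga6 and Pcdhga7 in the gamma cluster. The 6 gamma genes lie within a run of 8 neighbours in the array and share their constant exons, so they are not separate observations. Both regions were, per the methods, collected from the same females, so a gene higher in both is not a result from separate sets of mice. Pcdhgb2, for instance, was at 597 to 803 in intact and 811 to 975 in 4-month PH libraries and at 728 to 821 and 781 to 1087 in the POA. Pcdhb9, the highest beta gene, was at 514 to 636 and 649 to 809.9 in the PH and at 498 to 671 and 625 to 845 in the POA.

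Within a group, libraries that were high in one gamma member tended to be high in the others. With group means removed, the median Pearson r between pairs of gamma members was 0.55 over the 16 PH libraries (231 pairs, 99.6% above 0) and 0.31 over the 17 POA libraries. Beta members had a median of 0.21 in PH and 0.41 in POA libraries, and alpha members of 0.052 and 0.066. Between beta and gamma members it was -0.23 in both regions. Without PH 14-day replicate 5 the PH medians were 0.46 within gamma, 0.21 within beta, 0.11 within alpha and -0.096 between beta and gamma. These values describe pairs that share libraries, batch and, within gamma and alpha, exons. In the POA the beta members were higher in batch 1 libraries, at a median of 0.19 against 0.0082 in batch 2 relative to the intact mean, and the gamma members were lower, at -0.065 against 0.045. With batch means removed as well, the POA medians were 0.16 for beta, 0.11 for gamma and 0.056 between them, while the PH medians were 0.20, 0.54 and -0.25. These PH medians include 14-day replicate 5 and were not computed without it, so the regions cannot be set against each other on them. The part of read assignment among shared exons in these correlations was not tested.

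**Figure D5:**
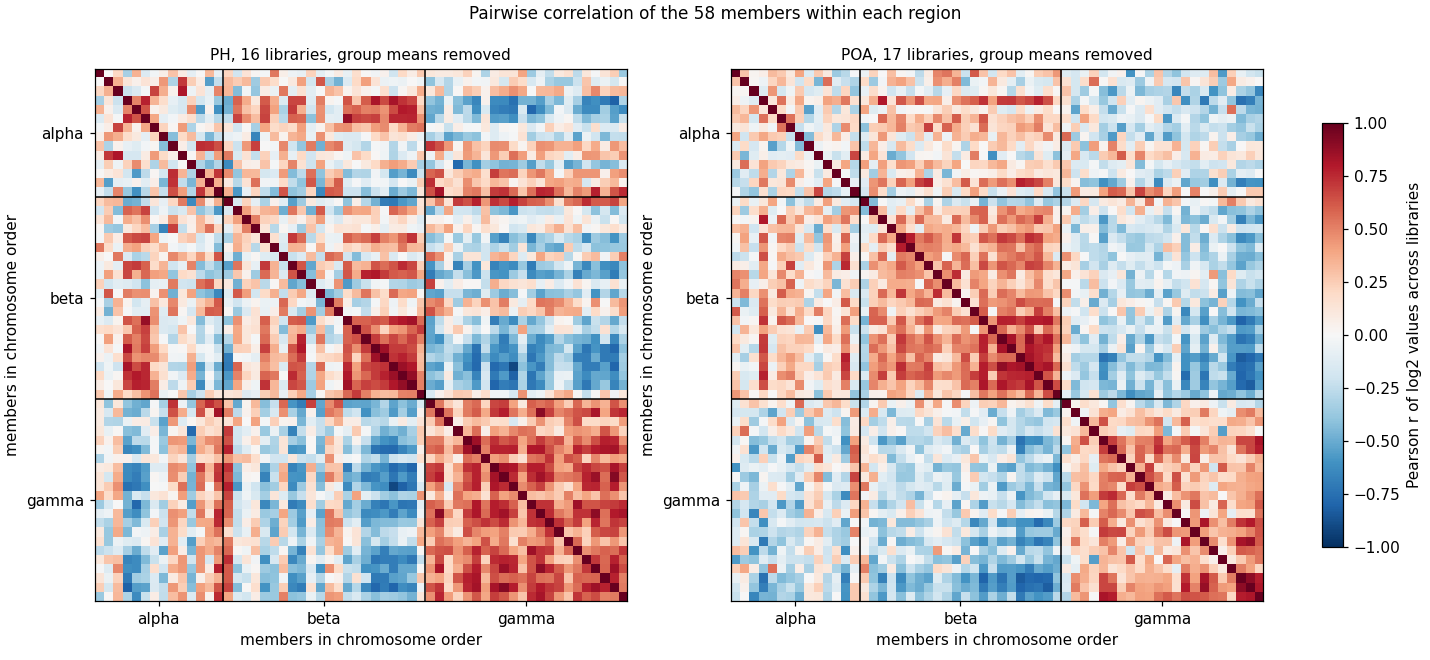
Pearson r between the log2 values of each pair of the 58 members across the 16 PH (left) and 17 POA (right) libraries after removal of group means, in chromosome order, with lines between the clusters. The gamma block is positive in both regions (median 0.55 and 0.31), and the blocks between beta and gamma are mostly negative (median -0.23 in both, and -0.096 in the PH without 14-day replicate 5).

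Genes that act on or with the clustered protocadherins gave 0 called genes in the 8 comparisons (limma, adjusted over all genes). The list of 26 genes for promoter choice and chromatin, which includes Ctcf, a DNA-binding protein that loops enhancers to protocadherin promoters, and cohesin genes, held 2 lower genes at an unadjusted p under 0.05 for the POA at 4 months, where 4.4% of all genes were lower, and 0 for the PH. Wapl, which releases cohesin from DNA, was lower in the POA, at a log2 fold change of -0.14 ± 0.050 (SE). Ehmt1, a histone H3 lysine methyltransferase, had the smallest p of the list in the PH, at -0.28 ± 0.088 at 14 days against intact and 0.36 ± 0.081 at 4 months against 14 days. At 14 days in the POA the smallest p was that of Nipbl, the cohesin loader (0.12 ± 0.048), and between 4 months and 14 days that of Zfp143, a zinc finger factor (0.18 ± 0.075). The median of the list was 0.0070 for the PH and -0.0077 for the POA at 4 months. Between the regions the smallest p was that of Ehmt1 at 14 days, at a difference of -0.36 ± 0.12, and of Kdm6b, a histone H3 lysine demethylase, at 4 months, at 0.30 ± 0.14.

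Among 30 signalling and adhesion partners, 3 were lower at an unadjusted p under 0.05 at 4 months in the POA and 1 in PH tissue, and none was higher, where 4.4% and 3.12% of all genes were lower. The smallest p belonged to Fyn, a Src-family kinase (-0.20 ± 0.052, SE), in the POA and to Marcks, an actin-regulating substrate of protein kinase C (-0.30 ± 0.11), in the PH. In the POA 5 of the 30 were lower at 14 days, where 3.3% of all genes were, Fyn again with the smallest p (-0.14 ± 0.052). Wasf1, a subunit of the WAVE actin regulatory complex, had a log2 fold change of 0.21 ± 0.094 for the POA between 4 months and 14 days. Marcks was at -0.24 ± 0.10 between 4 months and 14 days in the PH, and Src, a tyrosine kinase, had the smallest p between the regions at 4 months, at a difference of -0.24 ± 0.10. Of 21 tested protocadherins and related cadherins outside the clusters, 4 were higher in the PH at 4 months (Celsr1, Fat3, Celsr2 and Fat4), where 2.95% of all genes were, with a median of 0.10 for the list. Celsr1, a planar polarity cadherin, had the smallest p, at 0.56 ± 0.19 (SE). In the POA 0 were higher and 2 lower, where 4.1% and 4.4% of all genes were, the smallest p being that of Pcdh10, a delta-protocadherin (-0.11 ± 0.045). At 14 days the smallest p belonged to Dchs2 in the PH (0.32 ± 0.13) and to Pcdh10 in the POA (-0.13 ± 0.045), and between 4 months and 14 days in the POA to Dchs1 (-0.17 ± 0.078). Celsr2 had the smallest p for a difference between the regions at 4 months, at 0.30 ± 0.15.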

How the data were processed

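Libraries were made with a stranded poly(A) mRNA kit and sequenced as paired-end reads. Per the methods, the authors quantified transcripts with kallisto against mm39 and modelled gene counts with DESeq2 and a surrogate variable. The deposited table holds a normalized signal per gene with a floor of 22.1, and the step that made these values is not given in the sources used here. Of its rows, 1259 had no gene name and were left out. Genes at 44.2 or more in at least 4 PH or 5 POA libraries were kept (21983 and 21356, and 22131 for both regions). Log2 values with a pseudocount of 0 were fitted with limma 3.58.1 (trend and robust) in R 4.3.3. The model held the 3 groups of a region and a surrogate variable as covariate (SV1, 5 rounds of iteratively reweighted surrogate variable analysis). This method was run on simulated data with a hidden factor spread over all libraries. In the PH, SV1 was 0.79 in 14-day replicate 5 and between -0.31 and 0.19 in the other libraries, a setting that the simulation did not cover. A count test was not used, as the values were not counts. P-values were adjusted by Benjamini and Hochberg over all genes tested. Nothing says that libraries of a group came from separate mice, so p-values measure only the spread between these libraries, which may be technical.

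Members and gene lists were chosen with earlier results of these data known. Named members were the C-type genes, the 3 with the smallest p per comparison of groups, the 1 with the smallest p per region difference, and the highest and lowest per length in each cluster. Of other genes, the 1 with the smallest p of each list was named where that p was under 0.05. Other members and genes were named after their values were seen. Gene positions and exon lengths came from GENCODE M39 (GRCm39), not the authors' release. Alternatives changed the covariate, filter, pseudocount, floor, scaling, libraries and variance model. No sequence is printed.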

Additional observations from a re-analysis of the deposited data

Results flagged for a closer look

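In 102 sets of values (the libraries of 1 group, for each of 14 members and for the median of each of the 3 clusters), the gap between the most extreme library and its nearest neighbour was compared with the range of the group by Dixon's criterion. In 4 sets it was past the 95% limit, and chance alone gives about 1 in 20. Of these, 2 were in PH 14-day replicate 5, the library with the largest sum of values: Pcdhb2 was highest there, at 421.1 against 201 in the next library, and Pcdhga6 was lowest, at 1002 against 1529. Pcdhga11 was lowest in PH intact replicate 1, at 1013 against 1240.1 in the next. Pcdhga6 was lowest in POA 14-day replicate 3, at 1482 against 1677. No member passed the adjusted threshold for a difference between the regions.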

How the results depend on the processing

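The 20 fold changes named by rule kept their direction in all 643 recomputations. They were picked for the smallest p in these same libraries, and 363 of the recomputations only left out 1 library. A kept direction is therefore no independent support. Sizes ran from 0.043 to 0.45 for Pcdhga6 in the PH at 14 days and from 0.080 to 0.80 for Pcdhb1 in PH minus POA at 14 days. For Pcdhga3 in the PH at 4 months against 14 days they ran from 0.21 to 0.26. No member was called under any alternative in the 5 comparisons of groups other than POA 4 months against intact or in the region differences (limma). The call of Pcdhb14 in the POA at 4 months was lost (0 members called) with no covariate, with batch as covariate alone or beside SV1, only the 2 groups, batch 1 alone, batch 2 alone, no filter, centred libraries and limma without trend and robust estimates. There were 2 calls with batch and the component at the floor (the shared variation of genes near the floor), and 0 to 2 with 1 library left out (2 without POA 14-day replicate 6, and 0 without any other). Counts of members at an unadjusted p under 0.05, a result added after the data were seen, moved by more than 1.5 times as follows. In the PH at 14 days, 10 became 3 with batch, 3 with no covariate and 1 in batch 2 alone. At 4 months 24 became 4 in batch 2 alone, and against 14 days 5 became 8 with only the 2 groups. In the POA at 14 days, 9 became 15 with SV1 and batch and 1 in batch 2 alone, and at 4 months 17 became 8 in batch 1 alone. For PH minus POA at 14 days, 5 became 0 with batch, 0 with no covariate, 3 in batch 1 alone, 0 in batch 2 alone, 3 with no filter and 1 to 7 with 1 library left out, of which those that left 3 or fewer were PH intact replicates 1, 2 and 3, PH 14-day replicates 2, 3 and 4, POA intact replicates 2, 3 and 5 and POA 14-day replicates 2 and 6. At 4 months 7 became 3 in batch 1 alone, 0 in batch 2 alone and 4 to 8 with 1 library left out, with 4 without PH intact replicate 1, PH 4-month replicate 1 or POA intact replicate 2. Medians moved in the PH at 14 days for alpha (0.13 in batch 1 alone, -0.12 in batch 2 alone) and gamma (-0.10 in batch 2 alone), at 4 months for alpha (-0.12 in batch 2 alone), and at 4 months against 14 days for beta (-0.053) and gamma (0.31) in batch 2 alone. The cause was not tested. Batches alone hold fewer libraries. The median r in the POA became 0.16 for beta and 0.11 for gamma with batch means removed. Centring each library moved the median of all genes by less than 0.02.

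With the replicate number as a block (replicate block with SV1), 0 members were called in the POA at 4 months and 15 were under an unadjusted p of 0.05, against 21 in the PH. The labels do not say that a number marks 1 mouse or day. Same-numbered libraries of different groups correlated at -0.18 to 0.39 in the PH (9 of 14 pairs over 0.1) and -0.31 to 0.39 in the POA (14 of 16), and in 20 of 60 checks a library correlated best with its own number in another group. Most of these same-numbered pairs also shared a batch. PH and POA libraries of the same group and number correlated at -0.33 to 0.45 (14 of 16 pairs over 0.1). Their median was 0.23, against -0.058 for other numbers of the group, and 10 of the 16 PH libraries correlated best with their own number. These pairs shared a batch as well. With these pairs as a replicate block, chosen after seeing the data, 0 members were called between the regions, and 7 at 14 days and 5 at 4 months were under an unadjusted p of 0.05.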
